A study of Mus musculus with 10 samples.

Results

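The transcriptome of intestinal epithelial cells (IECs) from wild-type (WT) mice was described from 5 RNA sequencing libraries, which are 5 of the 10 in the series. They were chosen by their label alone, as the libraries of the genotype wild type. The IECs came from the colon of male C57BL/6J mice bought from a supplier, and the study's methods give an age of 6 to 8 weeks for its mice unless stated otherwise. No treatment is named for these libraries. The other 5 libraries, of RhoB-/- mice on the same background from another source, entered no calculation. The cells were released from opened colon with EDTA and DTT and lysed without a sort, so any cell that came off with the epithelium was sequenced too. The labels give 5 separate samples and do not state the number of mice behind each.

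The colonic epithelium is a single layer of cells renewed from stem cells at the base of the crypts. Most of its cells are absorptive colonocytes, which take up salt, water and short-chain fatty acids, or goblet cells, which release the mucin Muc2 that forms the mucus layer. Enteroendocrine cells secrete hormones, tuft cells sense luminal signals, and Paneth cells belong to the small intestine. A transcript's level is given here in TPM, its share of the library corrected for transcript length, so levels of different genes can be set side by side. TPM keeps no sequencing depth, so no counting error can be given, and every error is the SD between the 5 libraries.

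The table listed 55487 genes, of which 25764 had a TPM above 0 in at least 1 library and 16937 in every library. A mean TPM of at least 1 was found for 12825 genes, 11447 of them protein-coding. A mean of at least 100 was found for 1055 genes and of at least 1000 for 111. The number of genes above 0 was 20394 to 21344 per library (median 20501). Replicates 2 and 4 listed more genes at 10 TPM or above, 7495 and 7444, than replicates 1, 3 and 5, at 6737, 6871 and 6962. Across the 12825 genes, log2(TPM + 1) of any 2 libraries correlated with a Pearson's r of 0.946 to 0.966, a description across genes, which are not replicates. The closest pair by median difference was replicates 3 and 5, and the most distant was replicates 1 and 2, at 0.15 and 0.31 on the log2 scale.

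The most abundant transcripts were of mitochondrial origin. The 37 mitochondrially encoded genes, which supply subunits of the respiratory chain and the ATP synthase together with the rRNAs and tRNAs of the organelle, held 26.5%, 17.5%, 18.0%, 18.2% and 20.3% of the TPM in replicates 1 to 5. Replicate 1 was the highest and the other 4 lay close together. Of these genes 15 were above 0 and 22 were listed at 0 in every library. The leading entry was mt-Atp8, a subunit of the ATP synthase, with 95916 ± 18502 TPM (SD, n = 5), and its annotated length is only 204 bases. It was followed by mt-Co1, a cytochrome c oxidase subunit, with 55372 ± 10640 TPM, and by mt-Cytb of complex III with 11901 ± 2492 TPM. The 2 mitochondrial rRNAs, which dominate total RNA of mitochondria, were low, with 2083 ± 385 TPM for mt-Rnr1 and 1451 ± 210 TPM for mt-Rnr2.

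Genes annotated in the nuclear genome were among the leading entries too, some of them above mt-Cytb. Of the 40 most abundant nuclear genes, 7 were pseudogenes that copy mitochondrial DNA. Their sequences are shown because they decide how the values of mitochondrial genes can be read. They share more than 5% of their 31-base words with mitochondrial genes, and 6 of the 7 lie side by side on the minus strand of chromosome 1, within chr1:24612407-24616197 (GRCm38), a block of 3791 bases. In 4 of them no base differed from the mitochondrial gene over the aligned length. The first 60 bases of the coding strand of mt-Co2 (chrM:7013-7072, plus strand) and of its copy Gm28661 (chr1:24615506-24615565, minus strand) were the same. In the first 60 bases of mt-Nd3 (chrM:9459-9518, plus strand) and its copy Gm28438 (chr1:24613060-24613119, minus strand) 1 base differed, shown in capitals. It is T3C, counted from 1 at the first base of mt-Nd3, and it is the only difference over the 345 aligned bases.
mt-Co2: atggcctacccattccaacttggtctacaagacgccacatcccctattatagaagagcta
Gm28661: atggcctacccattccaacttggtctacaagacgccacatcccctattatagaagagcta
mt-Nd3: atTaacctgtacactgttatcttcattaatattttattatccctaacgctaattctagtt
Gm28438: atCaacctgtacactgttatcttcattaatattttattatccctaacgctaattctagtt

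The copies carried the larger part of the signal in 4 of the 7 pairs. Gm28661 had 59363, 38909, 41191, 38643 and 45412 TPM in replicates 1 to 5, while mt-Co2, of the same sequence, had 1070, 953, 590, 858 and 733 TPM. The copy was 40.8 to 69.8 times its mitochondrial twin. Gm28437 had 32815 ± 5848 TPM against 1741 ± 710 for mt-Co3, a cytochrome c oxidase subunit. Gm10925 had 25973 ± 4542 TPM against 1145 ± 244 for mt-Atp6. In these 3 pairs nearly all of the TPM stood under the nuclear pseudogene. Gm10222 had 11581 ± 2936 TPM against 2405 ± 1193 for mt-Nd4l, and Gm28438 had 3585 ± 596 TPM against 4036 ± 1849 for mt-Nd3. Gm29216, which matches mt-Co1 over 492 bases with 6 mismatches, had 18507 ± 3063 TPM. Gm13340 on chromosome 2 (chr2:22588103-22589647, minus strand), with 37 mismatches to mt-Co1 over 1545 bases, had 2928 ± 518 TPM. Reads of identical sequences cannot be told apart, so the sum of a pair is the firmer quantity.

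The split between twin and copy was closest to even for mt-Nd3 and changed most there. Of the sum of mt-Nd3 and Gm28438, the copy took 34.1% to 62.0%, and the CV (SD divided by the mean over the 5 libraries) was 0.46 for mt-Nd3 and 0.23 for the sum. In the pairs of mt-Co2, mt-Atp6 and mt-Co3 the copy took a nearly constant share, 97.6% to 98.6%, 95.02% to 96.4% and 92.8% to 96.8%, and the sums had CVs of 0.19, 0.17 and 0.18. The mitochondrial genes and the 7 copies together held 44.7%, 30.2%, 30.65%, 30.95% and 35.1% of the TPM in replicates 1 to 5. Replicates 2, 3 and 4 lay within 1 percentage point of each other, replicate 5 above them and replicate 1 far above.

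The profile was less concentrated once these genes were set aside. As deposited, 50% of the TPM was held by 32, 116, 99, 108 and 80 genes in replicates 1 to 5. Without the mitochondrial genes and copies it took 403, 379, 317, 375 and 351 genes. The 10 leading genes then held 9.17% to 10.8% of the remaining TPM and the 100 leading genes 28.5% to 31.4%, in place of 29.5% to 41.6% and 48.3% to 58.6%.

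**Figure D1:**
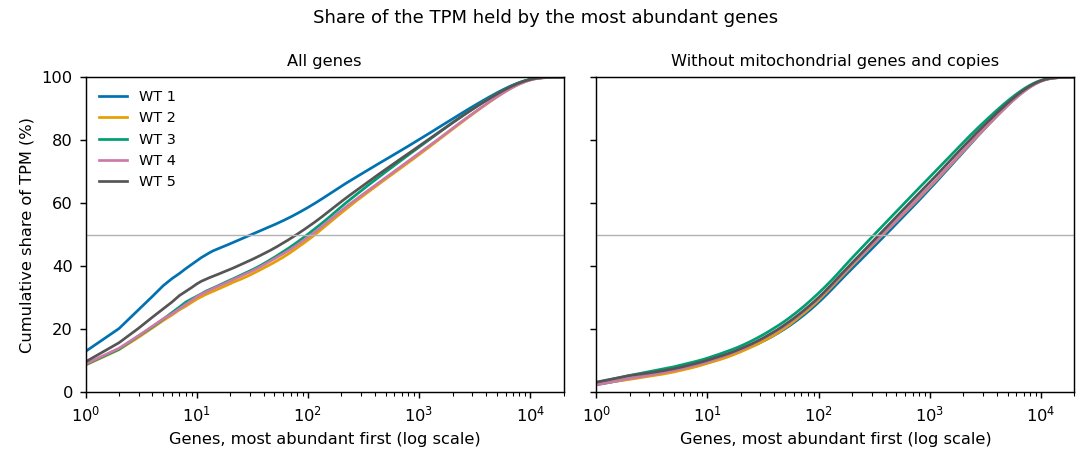
Cumulative share of the TPM (%) against the number of genes, most abundant first (log scale), with 1 line per WT library. On the left, with all genes, replicate 1 runs above the others and reaches 50% at 32 genes. On the right, without the mitochondrially encoded genes and their 7 nuclear copies, the 5 lines lie close together and reach 50% at 317 to 403 genes.

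Apart from these copies, the leading nuclear genes were products of differentiated colonic epithelium. Sprr2a2, a small proline-rich protein, had the highest value, with 12749, 17606, 20326, 15431 and 20347 TPM in replicates 1 to 5 (17292 ± 3269, SD). The gene lies on chromosome 3 (chr3:92215920-92256724, plus strand), and 97.8% of its 31-base words also occur in other genes. Its near copies Sprr2a1 and Sprr2a3 had 127 ± 23.98 and 263 ± 47.3 TPM, so the value is best read as that of the group. Car1, the carbonic anhydrase of colonocytes, followed with 10504, 10411, 15530, 13989 and 13343 TPM (12755 ± 2243). Lypd8, an anchored protein that keeps flagellated bacteria off the epithelium, had 5179 ± 1315 TPM, from 3348 in replicate 1 to 6889 in replicate 2. Muc2 had 6028, 4722, 3759, 6500 and 3896 TPM (4981 ± 1239), and here replicates 1 and 4 were the high ones.

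Structural, secreted and housekeeping genes filled the next places. Krt8 and Krt19, keratins of simple epithelia, had 4308 ± 296 and 3137 ± 254 TPM, with CVs of 0.07 and 0.08. Lgals4, an intestinal galectin, had 3202 ± 324 TPM. Zg16, a lectin of the mucus that binds Gram-positive bacteria, had 3014 ± 651 TPM, and Guca2a, which encodes the peptide guanylin, had 2478 ± 466 TPM. Agr2, an isomerase needed for mucin folding, had 2231 ± 225 TPM. Mptx1, the mucosal pentraxin, had 2524, 2514, 2270, 1195 and 2185 TPM, and replicate 4 lay far below the other 4. Fth1, the heavy chain of ferritin, had 3653 ± 781 TPM, and Cyp2c55, a cytochrome P450 of the colon, had 1940 ± 506 TPM. Among the 40 leading nuclear genes, 6 encode cytosolic ribosomal proteins. Of the 40 leading nuclear genes, 38 to 40 remained among the 40 when any 1 library was left out.

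1 gene among the 40 was not of this kind. Cmss1 had 442, 550, 8258, 5786 and 2889 TPM, an 18.7-fold range between replicates 1 and 3, and is taken up again with the gene-wise spread.

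The marker lists matched the label of colonic epithelium in most points. The 8 pan-epithelial genes summed to 9565 to 11104 TPM, and Epcam, the surface protein of epithelia, had 1158 ± 126 TPM. The colonic position was seen in 3 homeobox genes of the posterior body. Hoxb13 had 50.02, 135, 67.2, 79.4 and 74.99 TPM, Hoxa13 had 13.7 ± 2.20 TPM and Hoxd13 10.2 ± 6.69 TPM. Replicate 2 was the highest in all 3. Paneth cell products were low, with all 5 defensins searched listed at 0 in every library and Lyz1, lysozyme of these cells, at 0.06 to 0.77 TPM. Of the 8 genes of this list, 2 reached a mean TPM of 1. The list summed to 1.95 to 8.69 TPM, highest in replicate 1, and Itln1 held 67.7% of the sum. Of 15 small intestinal enterocyte genes, 10 reached a mean TPM of 1 and 6 a mean of 10. Fabp2, a fatty acid binding protein, held 85.2% of their sum, with 740 ± 108 TPM. Without it the mean sum was 129 TPM. Rbp2 had 33.95 ± 12.4 TPM, Slc10a2 13.9 ± 5.43 TPM and Apob 10.4 ± 3.75 TPM, levels like those of Hoxa13 and Hoxd13 or higher. The ileal bile acid binding gene Fabp6 had 3.67, 8.96, 18.9, 4.66 and 9.89 TPM.

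**Figure D2:**
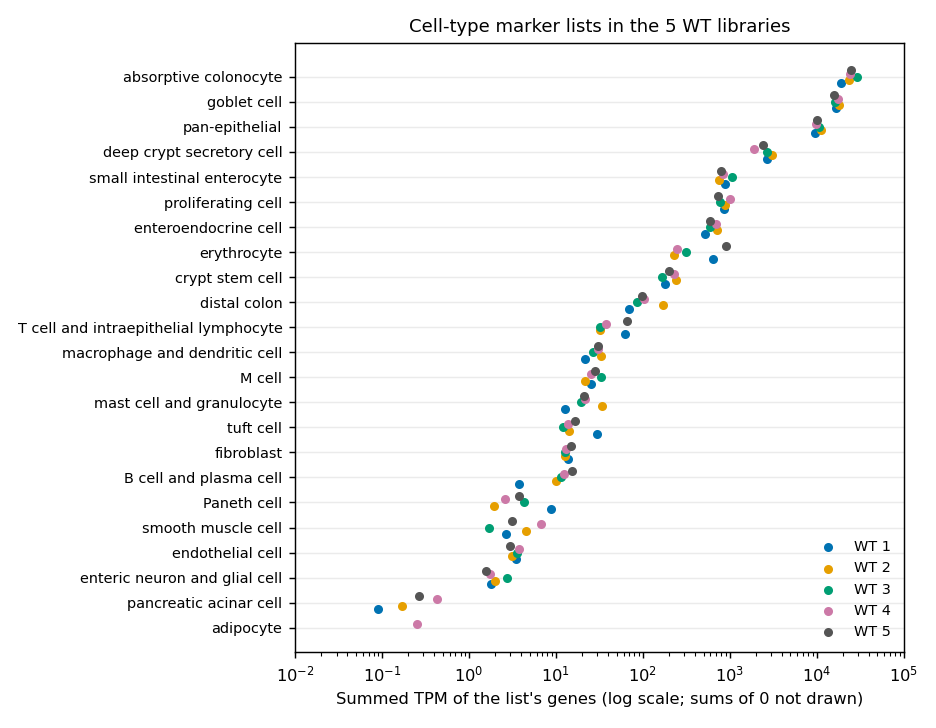
Summed TPM (log scale) of the genes of each cell-type marker list in each of the 5 WT libraries, 1 point per library, lists ordered by their mean. Absorptive colonocyte and goblet cell lists lead at 19217 to 29107 and 15677 to 18184 TPM, lymphocyte, stromal and Paneth cell lists lie at 65.1 TPM or less, and the erythrocyte list spreads from 226 to 903 TPM.

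Absorptive and secretory lineages were both strongly represented. In tissue without a sort, more cells of a type and more RNA per cell cannot be told apart, so these sums are levels and not cell shares. The 16 colonocyte genes summed to 19217, 23754, 29107, 24039 and 25162 TPM, lowest in replicate 1 and highest in replicate 3, with 52.6% in Car1. Slc26a3, the chloride and bicarbonate exchanger that defines these cells, had 200 ± 42.0 TPM. Krt20, a keratin of differentiated surface cells, had 720 ± 129 TPM, and the water channel Aqp8 had 83.7, 158, 270, 161 and 213 TPM. The 16 goblet cell genes summed to 15677 to 18184 TPM, a 1.16-fold range, narrower than for the colonocyte, enteroendocrine, tuft and stem cell lists.

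The goblet cell genes did not move together behind this steady sum. Muc2 was highest in replicates 4 and 1, while Tff3, the trefoil peptide of mucus, had 621 TPM in replicate 1 and 1133 to 1439 TPM in the others. Clca1, a protease that loosens mucus, had 1005, 670, 748, 348 and 857 TPM, lowest in replicate 4, where Muc2 was highest. Retnlb, a bactericidal resistin-like protein, had 298, 75.2, 118, 105 and 66.0 TPM. Spink4, Klk1 and Fcgbp, all products of goblet cells, had 1907 ± 360, 1525 ± 275 and 1000 ± 118 TPM. Among mucins other than Muc2, the membrane-bound Muc3 and Muc13 had 1781 ± 449 and 644 ± 141 TPM. The gastric mucin Muc5ac was listed at 0.00 to 0.01 TPM.

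Rarer epithelial cells were detected at levels lower by orders of magnitude. The 16 enteroendocrine genes summed to 523 to 709 TPM. Their leading gene Pyy, the peptide YY of colonic L cells, had 163, 306, 132, 211 and 172 TPM. The granule proteins Chgb and Chga had 111 ± 11.3 and 89.8 ± 11.6 TPM, and had smaller CVs than Pyy and Insl5. Insl5, a hormone of the distal colon, had 22.0, 60.6, 42.2, 39.4 and 45.3 TPM. The tuft cell list summed to 29.5 TPM in replicate 1 and to 12.0 to 16.5 TPM in the others, and its defining gene Dclk1 to 3.20 against 0.82 to 1.36 TPM. The M cell list was carried by genes with wider expression, since Gp2, which defines these cells of lymphoid follicles, was listed at 0.04 TPM in 1 library and at 0 in 4.

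Stem cell and proliferation genes of the crypt were present but not prominent. The 3 genes of the deep crypt secretory list had a higher sum, 1898 to 3042 TPM, with 83.8% in Mptx1. Without Mptx1 the mean sum of that list was 413 TPM. Of 15 stem cell genes, 13 reached a mean TPM of 1, and their sum was 167 to 243 TPM. Lgr5, the receptor that defines crypt base stem cells, had 1.20, 2.47, 1.38, 2.23 and 1.89 TPM. Slc12a2, a cotransporter of crypt cells, led the list with 48.6 ± 9.20 TPM. All 26 proliferation genes reached a mean TPM of 1, with a sum of 742 to 1008 TPM. Mki67 had 41.8, 40.7, 28.96, 46.7 and 24.1 TPM, lowest in replicates 3 and 5. Replicates 2 and 4 were the 2 highest for 9 of the 13 stem cell genes. The share was 46.8% of all protein-coding genes at 10 TPM or above, a mean that only 7 of the stem cell genes reached. After each library was divided by its median ratio to the gene means, 5 of 13 kept these 2 libraries, against 14.05%.

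Markers of cells other than epithelium were low. Of 101 markers in 10 lists for lymphocytes, myeloid cells, stroma, muscle, vessels, nerves, pancreas and fat, 24 reached a mean TPM of 1, 3 reached 10, and 16 were at 0 in every library. The 3 were Ccl5, a chemokine of T cells, Cd14, a receptor subunit for lipopolysaccharide, and Ly6g, with 15.6 ± 6.29, 20.4 ± 4.62 and 21.2 ± 7.92 TPM. The T cell and intraepithelial lymphocyte list summed to 62.3, 32.6, 32.5, 37.6 and 65.1 TPM, high in replicates 1 and 5. Its defining gene Cd3e had 2.53, 1.51, 0.89, 1.32 and 1.57 TPM. The fibroblast list summed to 12.6 to 15.0 TPM, and its defining collagen gene Col1a1 had 0.19 ± 0.06 TPM. Cdh5 of vessels and Sox10 of glia were at 0 in 4 of 5 libraries, Adipoq and Prss2 in all 5.

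Red blood cell transcripts had the highest sum of the lists for cells outside the epithelium and were high in the same libraries as those of T cells and intraepithelial lymphocytes. The erythrocyte list summed to 636, 226, 313, 247 and 903 TPM. Hba-a2, an alpha globin, had 295, 104, 137, 116 and 390 TPM, and shares 92.6% of its 31-base words with other genes. Replicates 1 and 5 held the 2 highest values for all 5 erythrocyte genes at 1 TPM or above and for 10 of 11 genes of the T cell and intraepithelial lymphocyte list, also after median ratio scaling. Among all 6834 protein-coding genes at 10 TPM or above they held them for 0.995% as deposited and for 8.52% after scaling. Other blood cell lists did not share this order, with sums of 3.75, 9.95, 11.3, 12.5 and 15.4 TPM for B cells and plasma cells. The macrophage and the granulocyte lists were lowest in replicate 1 as well, at 21.4 and 12.9 TPM. Each of these sums rested mostly on a single gene. Igkc held 64.9% of the B cell sum, Cd14 71.7% of the macrophage sum and Ly6g 97.3% of the granulocyte sum. Their orders are therefore largely those of these genes. The part of blood cell transcripts in the spread of other genes was not tested.

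The sex and strain given for the mice were set beside genes linked to them. Xist, expressed from the inactive X chromosome, was at 0.00 to 0.02 TPM, and the Y-linked genes Eif2s3y, Ddx3y, Kdm5d and Uty had 38.8 ± 2.58, 12.8 ± 1.67, 12.0 ± 2.21 and 6.84 ± 0.98 TPM. All 5 libraries therefore matched male mice. Nnt and Pla2g2a, both disrupted in C57BL/6J mice, had 5.78 ± 1.08 and 4.28 ± 2.32 TPM. These levels alone give no verdict on the strain. Rhob, the gene that the other genotype of the study lacks, had 171, 303, 365, 333 and 389 TPM, lowest in replicate 1.

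Genes of intestinal identity and function were high, and several of them were steady. Among 28 transcription factors of the intestine, all at a mean TPM of 1 or above, Elf3 led with 261, 378, 606, 324 and 579 TPM, followed by Klf4 with 314 ± 93.6 TPM. Both were highest in replicates 3 and 5. The identity factors Hnf4a, Cdx1 and Cdx2 had 223 ± 16.3, 186 ± 15.5 and 112 ± 9.48 TPM, with CVs between 0.07 and 0.08. Ffar2, a receptor for short-chain fatty acids, had 9.43, 9.66, 9.77, 9.61 and 10.6 TPM, a CV of 0.05, while the related Ffar3 was at 0.06 to 0.81 TPM. Of 7 MHC class II genes 6 reached a mean TPM of 1 and none 10, led by the invariant chain Cd74 with 8.10 ± 2.30 TPM.

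The spread of a gene between the 5 libraries was small for most genes and fell with abundance. The median CV was 0.16 over the 12825 genes at a mean TPM of 1 or above. It was 0.22 at 1 to 10 TPM, 0.13 at 10 to 100 TPM and 0.11 at 100 to 1000 TPM, and it rose again to 0.15 for the 111 genes above. A CV below 0.1 was found for 2448 genes (19.1%) and above 0.5 for 818 genes (6.38%). Differences between kinds of gene were wider. Protein-coding genes had a median CV of 0.15, long intergenic RNAs 0.35 and processed pseudogenes 0.46, while the 32 nuclear rRNA genes and the 55 miRNA genes at 1 TPM or above each had a median of 2.24. This is the value a gene has when it is above 0 in only 1 of 5 libraries.

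**Figure D3:**
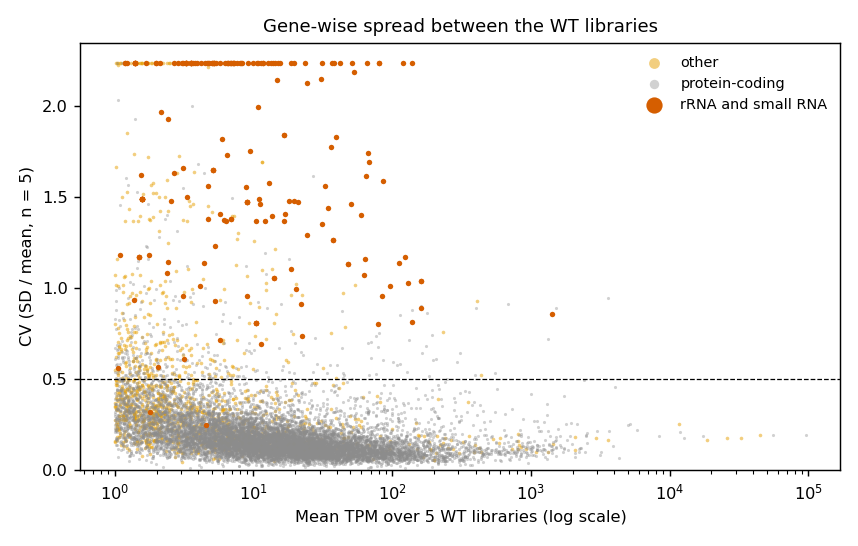
CV (SD divided by mean, n = 5) of each gene with a mean TPM of at least 1 against its mean TPM (log scale), coloured by kind of gene, with a dashed line at a CV of 0.5. Protein-coding genes form the low band, with a median CV of 0.15, and rRNA and small RNA genes lie mostly above 0.5, up to the row at 2.24.

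The steadiest genes were of general cell function. Eif4a3, a helicase of the exon junction complex on chromosome 11, had 66.1, 67.8, 67.4, 66.4 and 67.4 TPM, the lowest CV of the 7134 genes at 10 TPM or above, at 0.01. Smim14, Mrpl50, Itgb1 and Cmpk1 followed at CVs of 0.01 to 0.02. Itgb1, the beta 1 integrin that anchors cells to the basement membrane, had 68.6 to 71.2 TPM, and Atg5, a gene of autophagy, 15.97 to 16.8 TPM. For comparison, the 5th percentile of the CV was 0.06 at 10 to 100 TPM.

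At the other end, all 20 genes of the highest CV at 10 TPM or above were listed above 0 in a single library, and none was protein-coding. There were 24 such genes in all, of which 14 were rRNA, 6 miRNA, 3 snoRNA and 1 snRNA genes, with annotated lengths of 116 to 165 bases. Replicate 4 held 12 of them and replicate 3 held 5. Gm26391, an rRNA gene on chromosome 8, had 695 TPM in replicate 4 and 0 in the others, and n-R5s133 had 602 TPM in replicate 4. All 31-base words of both occur in other genes, so which copy a read was given to is uncertain.

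The sum over the rRNA genes differed between libraries as well. TPM is corrected for length, so the sum still depends on the assignment of reads between rRNA genes of unequal length. Words shared with genes of other kinds can affect it too. All nuclear rRNA genes summed to 406, 828, 4184, 7375 and 1398 TPM in replicates 1 to 5, an 18.1-fold range. The largest of them, CT010467.1, an rRNA gene on chromosome 17, had 304, 679, 1817, 3375 and 956 TPM. Some other noncoding RNAs without a poly(A) tail, named after their values were seen, had the same 2 libraries on top. Rn7sk, which holds back the elongation factor P-TEFb, had 15.9, 37.2, 124, 207 and 36.5 TPM. Rpph1, the RNA part of ribonuclease P, had 2.45, 5.04, 35.4, 47.2 and 10.46 TPM. Of their 31-base words, 72.8% and 70.2% occur in other genes too.

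Some protein-coding genes of very large spread had the same 2 highest libraries as the rRNA genes. The CV was above 0.3 for 332 of the 6834 protein-coding genes at 10 TPM or above, and 22 of these (6.63%) had their 2 highest values in replicates 3 and 4, against 4.92% of all 6834, a share near the background. Cmss1 is the most abundant of them, and the others named here were chosen after their values were seen. Tmtc2 had 253, 271, 2803, 3078 and 1193 TPM, Sspn 84.6, 98.1, 1234, 1405 and 571 TPM, and Gphn 56.5, 91.3, 743, 820 and 308 TPM. Il31ra, a cytokine receptor subunit, had 663, 626, 1528, 2913 and 907 TPM, and Lars2, the leucyl-tRNA synthetase of mitochondria, 25.4, 30.7, 131, 136 and 69.9 TPM. Each of these had its highest values in replicates 3 and 4, replicate 5 next and replicates 1 and 2 lowest. None of the 31-base words of their annotated transcripts occurs in CT010467.1. This comparison was with that rRNA gene only and did not cover introns. The part of rRNA or of other RNA without a poly(A) tail in these values was not tested.

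The functional lists differed in spread, with metabolic and ribosomal protein genes at the low end and mucosal defence at the high end. The median CV was 0.09 for the 15 glycolysis genes, 0.10 for the 16 genes of ketogenesis and fatty acid oxidation and 0.11 for the 90 ribosomal protein genes at 1 TPM or above, below the 0.16 of all genes. Of their members, 2, 3 and 3 lay above that value. Most of these genes were abundant, with 14, 16 and 88 at a mean of 10 TPM or above. Among all genes the median CV was 0.13 at 10 to 100 TPM, 0.11 at 100 to 1000 TPM and 0.15 above. The low medians are thus near those of genes of like abundance. The order of the lists depended on the scaling. Under the 4 alternatives the median was 0.048 to 0.075 for ribosomal protein genes and 0.086 to 0.107 for glycolysis. Gapdh, a common reference gene, had 2076 ± 152 TPM, and Eno1, enolase 1, 364 ± 11.2 TPM at a CV of 0.03. The ribosomal protein genes summed to 59969, 80299, 74279, 74126 and 71257 TPM, lowest in replicate 1, but were 10.9% to 11.6% of the TPM left without mitochondrial genes and copies.

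**Figure D4:**
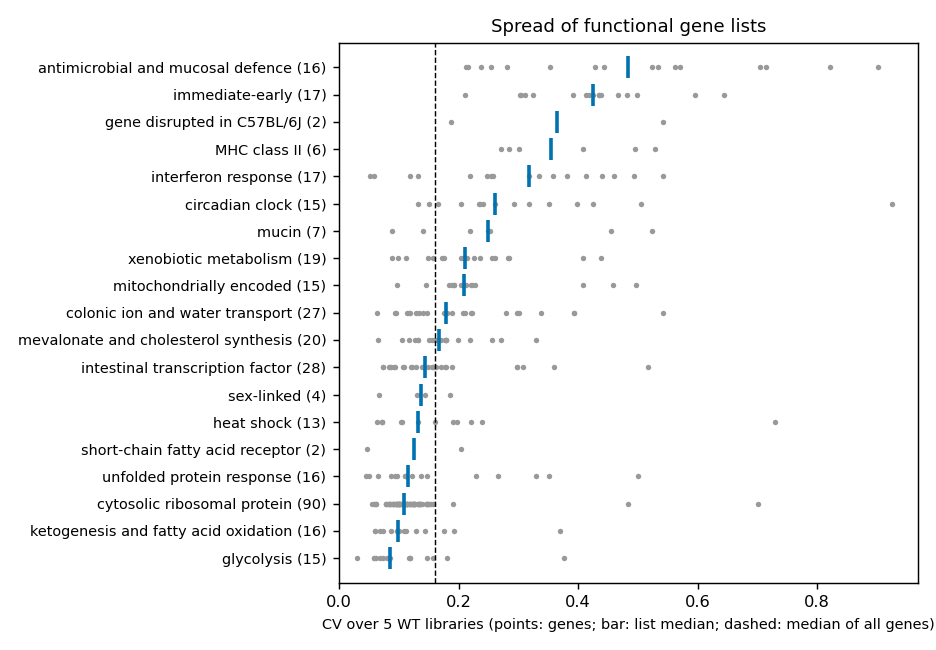
CV over the 5 WT libraries of each gene with a mean TPM of at least 1 in the functional lists (points), the median of each list (bar) and the median over all 12825 genes (dashed line). The numbers in brackets count the genes drawn. As deposited, glycolysis lies lowest, at a median of 0.09, and antimicrobial and mucosal defence highest, at 0.48, while ribosomal protein genes lie below glycolysis under the 4 alternative scalings.

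Secreted defence genes had the largest spread, with a median CV of 0.48, and all 16 at 1 TPM or above exceeded the median of all genes. Ang4, a bactericidal ribonuclease, had 379, 50.8, 209, 14.0 and 149 TPM, a 27.1-fold range. Reg4, a lectin of deep crypt secretory cells, had 173, 510, 386, 685 and 233 TPM. Ang4 and Reg4 thus had opposite extremes, with Ang4 highest in replicate 1 and lowest in replicate 4 and Reg4 the reverse. Saa1, an acute-phase protein that the epithelium makes in contact with bacteria, had 156, 542, 462, 265 and 368 TPM. Reg3b and Reg3g, bactericidal lectins, had 217 ± 96.3 and 107 ± 37.9 TPM, while Pigr, the receptor that carries IgA to the lumen, was steadier with 1183 ± 252 TPM.

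Immediate-early genes, which cells induce within minutes of a stimulus or of handling, were high and shared 1 pattern. The 17 genes measured summed to 2148, 3669, 6518, 4087 and 6658 TPM in replicates 1 to 5, a 3.10-fold range. Fos had 449, 812, 1392, 918 and 1458 TPM, Atf3 100, 169, 507, 235 and 534 TPM, and Egr1 108, 186, 442, 221 and 518 TPM. Replicates 3 and 5 were the highest and replicate 1 the lowest in each. For 16 of the 17 genes the 2 highest values were in replicates 3 and 5, as deposited and after median ratio scaling, against 8.78% and 19.0% of all 6834 protein-coding genes. Of the 332 protein-coding genes with a CV above 0.3, 143 (43.1%) had these 2 libraries on top. Of the 143, 106 had their lowest value in replicate 1. That library also held the lowest value for 43.5% of all 12825 genes at a mean TPM of 1 or above. The part of its generally low level in the 106 was not tested.

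The 143 also included genes outside this list, named here after their values were seen. Areg and Hbegf, ligands of the EGF receptor, were among them, and Areg had 78.7, 85.9, 358, 102 and 347 TPM. Nfkbia, an inhibitor of NF-kB that is itself a target, had 79.6, 117, 313, 137 and 337 TPM, and Txnip, a gene induced by glucose, 314, 361, 829, 343 and 918 TPM. Sprr1a, a small proline-rich protein, and Cldn4, a claudin of tight junctions, had 35.5, 30.5, 215, 65.4 and 226 TPM and 44.9, 40.1, 133, 59.5 and 150 TPM. In Areg, Nfkbia, Txnip, Sprr1a and Cldn4 the lowest value of replicates 3 and 5 was more than 2 times the highest of the other 3 libraries. Of the 17 immediate-early genes 15 are among the 143.

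**Figure D5:**
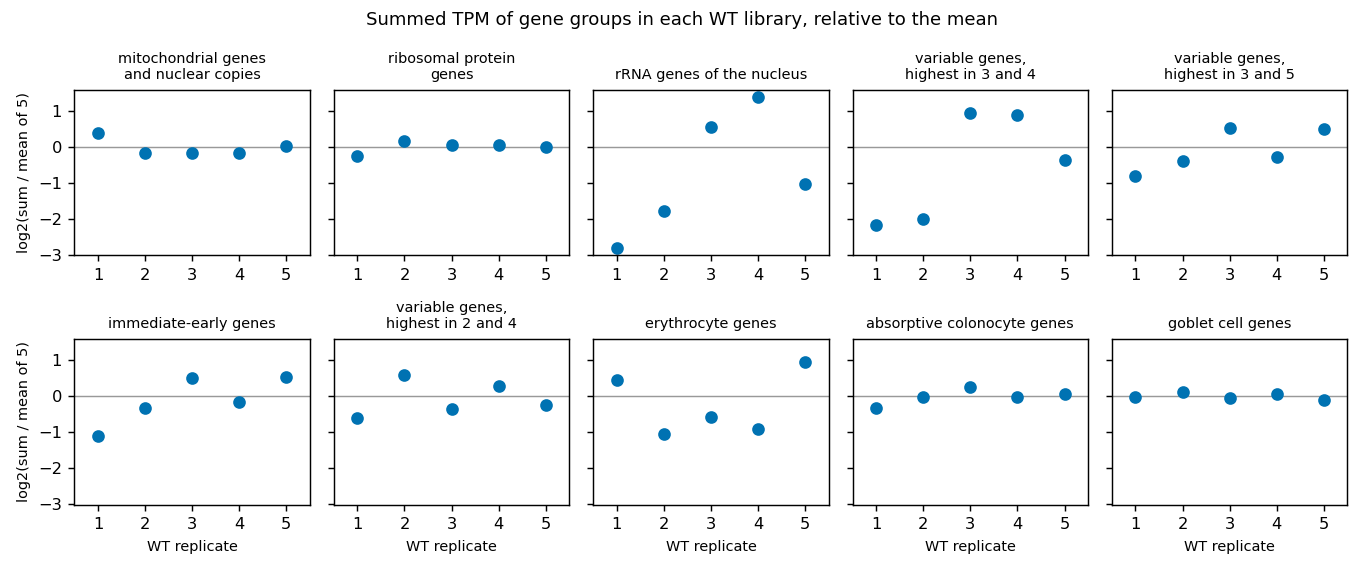
Summed TPM of 10 gene groups in each WT library, as log2 of its ratio to the mean of the 5 libraries (0 is the mean), 1 panel per group and the same vertical scale throughout. The rRNA genes span an 18.1-fold range with replicate 4 on top, immediate-early genes peak in replicates 3 and 5, and erythrocyte genes in replicates 1 and 5. Groups named by their highest libraries were chosen by those values, so their shape is a description.

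Promoters of 3 genes are shown as examples with a match, Fos and Btg2 from the immediate-early genes and Hspa1a from the heat shock genes. Each window runs from 250 bases before to 50 after the start of the gene in RefSeq on GRCm38.p6, and capitals mark motif matches. Searched on both strands were the heat shock element GAANNTTC, the TATA box TATAAA, the cAMP response element TGACGTCA and the E-box CACGTG, and each window holds 1 match. Such matches were not typical of the immediate-early list, where 2 of 14 promoters held a TATA box and 2 of 14 a cAMP response element. They are for Fos chr12:85473640-85473939 (plus strand), for Btg2 chr1:134079106-134079405 (minus strand) and for Hspa1a chr17:34972107-34972406 (minus strand). The TATA box of Fos begins 33 bases before the start, the cAMP response element of Btg2 166 bases and the heat shock element of Hspa1a 104 bases before it.
Fos: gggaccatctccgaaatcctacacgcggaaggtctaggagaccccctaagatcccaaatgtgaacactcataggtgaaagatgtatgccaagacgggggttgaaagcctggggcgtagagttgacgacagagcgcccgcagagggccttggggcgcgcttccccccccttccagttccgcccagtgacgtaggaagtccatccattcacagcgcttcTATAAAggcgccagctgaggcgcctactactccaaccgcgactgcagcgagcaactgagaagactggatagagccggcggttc
Btg2: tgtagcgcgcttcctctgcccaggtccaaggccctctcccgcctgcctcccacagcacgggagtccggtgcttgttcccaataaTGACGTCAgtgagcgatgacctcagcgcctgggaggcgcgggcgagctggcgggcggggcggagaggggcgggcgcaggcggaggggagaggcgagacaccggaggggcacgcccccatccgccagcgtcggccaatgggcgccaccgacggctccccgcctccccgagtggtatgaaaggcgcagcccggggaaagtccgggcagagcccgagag
Hspa1a: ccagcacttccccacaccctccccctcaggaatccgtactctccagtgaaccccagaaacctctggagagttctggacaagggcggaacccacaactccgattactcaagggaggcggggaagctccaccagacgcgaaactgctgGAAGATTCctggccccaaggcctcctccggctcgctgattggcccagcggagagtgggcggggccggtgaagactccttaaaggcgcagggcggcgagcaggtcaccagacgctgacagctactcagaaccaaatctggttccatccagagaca

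The letters of a TATA box occurred in a larger share of the promoters of the 143 genes than of all genes at 10 TPM or above. They were present for 26 of the 115 with a promoter window (22.6%) against 503 of 5575 genes at 10 TPM or above (9.02%) and 15.7% of all 27025 genes with a window. The cAMP response element occurred for 11 of the 115 (9.57%) against 3.73% of the 5575 and 2.03% of the 27025. Heat shock elements occurred for 6 of the 115 (5.22%) against 6.98% and 9.04%, and E-boxes for 19 (16.5%) against 12.7% and 8.09%. Among the 100 genes of lowest CV, 83 had a window. TATA boxes occurred for 3 of them (3.61%) and cAMP response elements for 5 (6.02%), the latter also above the 3.73%. Of the 100 genes of highest CV of any kind, only 10 had a window. Of these 10, 0 held a TATA box, 0 an E-box, 1 a cAMP response element and 2 a heat shock element. The 100 protein-coding genes of highest CV, some of them among the 143, were not among the sets first planned. They gave shares like those of the 143. A TATA box occurred for 16 of 70 with a window (22.9%) and a cAMP response element for 7 (10%). These are counts of letters, and genes with several windows were counted once if any held a match.

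Heat shock genes carried the heat shock element in 8 of 10 promoters, and their transcripts were abundant. Their median CV was 0.13. All 13 were at 10 TPM or above, where the median over all genes was also 0.13. Of the 13, 6 lay above the 0.16 of all genes at 1 TPM or above. The list summed to 4853 to 6290 TPM. Hspa8, the constitutive chaperone, had 1253 ± 89.9 TPM, and the inducible Hspa1b and Hspa1a had 982, 1456, 902, 1390 and 923 TPM and 738, 1065, 713, 977 and 718 TPM. These 2 share most of their sequence, with 70.1% of the 31-base words of Hspa1a in other genes. Both were highest in replicates 2 and 4, as were 46.8% of all 6834 protein-coding genes. Hspb1, a small heat shock protein, had 36.7, 53.0, 8.76, 34.2 and 5.36 TPM, the largest spread of the list, and was lowest in replicates 3 and 5.

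A further set was highest in replicates 2 and 4 and comprised 91 of the 332 protein-coding genes with a CV above 0.3 (27.4%), a smaller share than the 46.8% of all 6834. The transporter Slc37a2 had 13.3, 96.1, 86.5, 168 and 35.7 TPM, and Tgm3, a transglutaminase, 103, 338, 122, 218 and 147 TPM. Sycn, a protein of secretory granules, had 330, 972, 404, 654 and 504 TPM. Reg4, Hoxb13 and Pyy belong to it as well. After median ratio scaling, 23 of 275 such genes (8.36%) had these 2 libraries on top, against 14.05% of all, and 169 of 275 had replicates 3 and 5 on top.

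That overall level differed between libraries and touches every gene. The median deviation of log2(TPM + 1) from the gene's mean was -0.13, 0.15, -0.07, 0.09 and -0.04 in replicates 1 to 5. Replicate 2 held the highest value of 46.9% of the 12825 genes and replicate 1 the lowest of 43.5%. TPM values are shares, and mitochondrial genes and copies held 44.7%, 30.2%, 30.65%, 30.95% and 35.1% of them in replicates 1 to 5. Replicates 2, 3 and 4 had like shares but median deviations of 0.15, -0.07 and 0.09. The part of the mitochondrial share in the level of the other genes was not tested. Deviations differed by annotated length, which is that of all exons of a gene joined over its transcripts. For the longest 10% of protein-coding genes the median was -0.10, 0.21, -0.20, 0.16 and -0.08, and for the shortest 10% -0.14, 0.10, 0.07, 0.02 and -0.05. Replicates 2 and 4 were thus high and replicate 3 low in genes of long annotated exons. No measure of RNA quality was at hand to set beside this. Replicate 4 carried 23.8% of the squared deviations and replicate 5 the least, 15.2%.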

How the data were processed

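RNA sequencing values of 5 WT libraries were used. Per the labels and the study's methods, total RNA of colonic IECs was sequenced paired-end, and the authors used SeqPrep and Sickle for trimming, HISAT2 for alignment to GRCm38.p6, StringTie for assembly and RSEM for quantification (versions not given in the sources used here). The deposited TPM values carry no read counts, so depth and counting error are unknown. The columns of the other genotype in the same table were not used. Gene names and biotypes came from GENCODE M21, which held 55227 of the 55487 gene IDs, and promoters from RefSeq.

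Means, SDs and CVs over the 5 libraries, sums over gene lists and Dixon's gap ratio were computed with Python 3.11.15, NumPy 2.4.6 and pandas 2.3.3. The spread was read at a mean TPM of at least 1, on the log scale with a pseudocount of 1, and the spread measures were tested on simulated data. There was 1 group, so no test was run. The study gives an n of 5 for each genotype, and no source states outright that each library is 1 mouse, so the spread may be between mice or in part technical. Genes named were the 40 nuclear genes and the mitochondrial genes of highest mean TPM, each list's defining marker and 4 leading members, the 20 of highest and 10 of lowest CV at a mean TPM of at least 10, the 5 farthest out in each library, Rhob, and the genes of sex and strain. Any other was chosen after its values were seen. Members and lists were chosen with earlier results of these data known. A few genes and 1 gene list are not reported here.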

Additional observations from a re-analysis of the deposited data

Results flagged for a closer look

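For 288 named genes and list sums, the distance of the highest or lowest of the 5 libraries from its nearest neighbour was set against the whole range. In 43 of them it was above Dixon's 95% critical value of 0.71, which chance exceeds in about 1 in 20 values. The number cannot be read against chance, because many of these genes were named for their high CV or their distance in 1 library, and a value above 0 in a single library meets the measure by construction.

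Replicate 1 was far above the others in mt-Atp8 (128190 TPM), mt-Cytb (16137 TPM), mt-Nd1 (11109 TPM), mt-Nd4l (4529.8 TPM) and mt-Nd2 (3443.9 TPM). These 5 go with its mitochondrial share, the highest of the 5 libraries. It was far below in Rps27, a ribosomal protein gene, at 1479.8 TPM, and in Hadha, an enzyme of fatty acid oxidation, at 143.78 TPM. The tuft cell list and its defining gene Dclk1 were far above the rest in replicate 1, at 29.51 and 3.20 TPM.

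Replicate 2 was far above the others in Hspa8 (1409.9 TPM) and Smim14 (127.61 TPM), the last within a very narrow range. Replicate 4 was far below in Mptx1, at 1195.1 TPM, and far above in C1qa, a complement gene of macrophages, at 7.08 TPM. The second table entry named Nnt had 1.36 TPM in replicate 4 and 0 in the others.

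Gp2, the defining gene of the M cell list, was above 0 in replicate 1 only, at 0.04 TPM. Markers of cells outside the epithelium were above 0 in 1 library only for Cdh5 (0.02 TPM, replicate 3), Sox10 (0.02 TPM, replicate 5), Cel (0.03 TPM, replicate 4) and Cfd (0.25 TPM, replicate 4). Cfd alone gave the adipocyte sum of 0.25 TPM.

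Short noncoding genes made up the rest. In replicate 4, Gm26391 had 695.23 TPM, n-R5s133 602.08, n-R5s144 401.17, n-R5s110 328.81, Gm24407 270.96, n-R5s146 255.25, n-R5s113 117.04, n-R5s131 92.94, Gm22614 68.67, Gm26447 58.79 and n-R5s115 54.03 TPM. In replicate 3, n-R5s143 had 401.44 TPM, n-R5s138 211.29, n-R5s134 189.32, n-R5s124 183.15 and Gm47280 75.6 TPM. Replicate 1 had Gm22625 at 78.1, Gm27857 at 66.47 and Gm23442 at 58.21 TPM, replicate 2 Gm22247 at 63.26 and Gm23158 at 56.97 TPM, and replicate 5 Gm25212 at 97.94 and Gm22032 at 53.24 TPM.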

How the results depend on the processing

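The alternatives with 7 nuclear copies left out, with protein-coding genes only, and for the genes highest in replicates 3 and 5 were chosen after seeing the data. Without mitochondrial genes the 10 most abundant genes held 22.957% of the TPM and the 100 most abundant 41.57%, in place of 33.238% and 51.72%, and 188.6 genes held 50% on average, in place of 87. Without mitochondrial genes and copies these values were 9.79%, 29.78% and 365. The median CV of 0.16 became 0.128 at a mean TPM of at least 10, 0.384 with no filter, 0.151 for protein-coding genes, 0.152 without mitochondrial genes, 0.129 after quantile normalization, 0.133 after median ratio scaling and 0.148 to 0.167 with 1 library left out. The median SD of log2 values, 0.206, became 0.231 with a pseudocount of 0.1 and 0.189 to 0.215 with 1 library left out. Genes with a CV above 0.5 numbered 818, or 176 at a mean TPM of at least 10, 11326 with no filter, 317 among protein-coding genes, 824 to 1129 under the scalings and 758 to 855 with 1 library left out. Genes highest in replicates 3 and 5 numbered 126 to 169 under the scalings. Of 382 values for single lists or libraries, 115 moved by more than their spread. With quantile normalization 15 of 20 functional lists had a median CV above that of all genes, against 12 as deposited. The cause of these shifts was not tested beyond what the filters remove. No paired analysis was possible because 1 group was described and nothing was compared between groups. Depth is unknown, so low TPM values carry an error that cannot be stated.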
